A study of Homo sapiens with 9 samples.

Results

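Hap1 cells that carried the H448L form of SARS2 were compared directly with Hap1 cells that carried the R227Q form. SARS2 is the nuclear gene for mitochondrial seryl-tRNA synthetase. The contrast used 6 of the 9 RNA libraries of the study, 3 per variant, taken by their labelled genotype and not by any measured value. The remaining 3 libraries came from cells with wild-type SARS2 (WT), and they entered the model to estimate the difference between sequencing submissions, the shared spread and the values against WT given beside the contrast. Hap1 is an established, near-haploid human leukaemia-derived line that grows attached to the dish. All 9 libraries came from the same engineered background, in which the endogenous SARS2 gene was deleted and a FLAG-tagged copy (SARS2-1xFLAG) depended on doxycycline. Each line also held a constitutive copy labelled SARS2+int14-myc, as WT, R227Q or H448L. The cells had been without doxycycline for 6 days, so that per the series design the constitutive copy was the only SARS2 expressed. No group in the series had doxycycline, and all groups shared the deletion, so the parental state was not analysed here. The labels do not say whether a genotype was 1 clone, whether replicates were separate cultures, or what int14 stands for. All p-values therefore rest on library-to-library spread, and that spread may be technical.

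Mitochondrial seryl-tRNA synthetase attaches serine to both serine tRNAs of the mitochondrion, a step that the synthesis of the respiratory chain subunits encoded in mitochondrial DNA depends on. Loss of mitochondrial translation is known to engage the integrated stress response, in which ATF4 raises genes for amino acid synthesis, amino acid transport and secreted stress hormones. The 2 variants lie in different places of the SARS2 transcript SARS2-201, which has 16 exons and encodes 518 residues on the minus strand of chromosome 19 (GRCh38, GENCODE 29). The codon altered in R227Q lies in exon 7 at chr19:38919840-38919842, 78 bases from the 3′ end of that exon. The codon altered in H448L lies in exon 14 at chr19:38916040-38916042, 3 bases from the 3′ end of the exon. The reference coding sequence around each altered codon follows in mRNA sense after splicing, with the affected codon in capitals, to place the 2 changes that define the groups. The base change that was introduced is not in the labels.
SARS2 at the arginine codon altered in R227Q: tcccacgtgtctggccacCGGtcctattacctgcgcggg
SARS2 at the histidine codon altered in H448L: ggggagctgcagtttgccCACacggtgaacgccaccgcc

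Total counts per library ranged from 11262316 to 12349129 for R227Q and from 9900892 to 11229588 for H448L. The labels place the libraries in 2 submissions, named SDKYMR and 4LJFHN by the column prefixes: R227Q 1, WT 1 and WT 2 were in the first, and R227Q 2, R227Q 3, WT 3 and all H448L libraries in the second. R227Q 1 stood apart from R227Q 2 and R227Q 3, with a chi-square per degree of freedom over genes of 20.2 and 21.4, against 1.49 between R227Q 2 and R227Q 3 and 1.63 to 2.41 among the H448L libraries. No pair was within sampling noise, so none was treated as the same library deposited again. The submissions also differed in cell type marker genes, in both directions. HBG2, a fetal globin gene, was at 46.1 to 67.2 CPM (a gene's count scaled to a common library total) in the 6 libraries of 4LJFHN and at 0 in the 3 of SDKYMR, and COL3A1, a fibroblast collagen, was at 2.19 to 4.15 against 0. GATA2, a haematopoietic marker, went the other way, at 19.7 to 23.6 CPM in 4LJFHN and 29.7 to 35.3 CPM in SDKYMR. The source of these transcripts was not tested. Within 4LJFHN, HBG2 and COL3A1 were present in both variants: HBG2 was at 54.9 and 46.1 CPM in R227Q and at 54.4, 56.7 and 67.2 CPM in H448L. Of the haematopoietic markers, 4 of 14 were expressed highly enough to be tested, of the fibroblast markers 8 of 12, of the epithelial markers 4 of 11 and of the neuronal and kidney markers 8 of 11. None of them was called in edgeR's test. An unadjusted p under 0.05 was reached by 7 of these tested markers, against 10.9% of all genes tested. Of the 7, 5 were of the fibroblast list (3 higher and 2 lower in H448L) and 2 of the haematopoietic list (both higher). The summed level of the markers was 36.7 to 100 CPM in R227Q and 94.9 to 118 CPM in H448L for the haematopoietic list. It was 1128 to 1625 and 1491 to 1509 CPM for the fibroblast list, 88.0 to 97.5 and 82.5 to 93.4 CPM for the epithelial list, and 194 to 216 and 205 to 213 CPM for the neuronal and kidney list. The lowest R227Q sums of the haematopoietic and fibroblast lists came from R227Q 1 of SDKYMR. In 4LJFHN, R227Q 2 and R227Q 3 were at 100 and 86.3 CPM for the haematopoietic list and at 1545 and 1625 CPM for the fibroblast list. KRT5 was the only marker at 0 in every library. The part of these transcripts in the results below was not tested.

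The 2 variants differed little. Of 16908 genes tested, 35 (0.207%) passed an adjusted p of 0.05 in edgeR's quasi-likelihood test with submission as a term, 14 (0.0828%) higher and 21 (0.124%) lower in H448L than in R227Q. The same model called 2944 genes (17.4%) for R227Q against WT and 1347 (7.97%) for H448L against WT, contrasts that share their variant libraries with this one. Those 2 contrasts were not equally precise, because H448L shared its submission with WT 3 only. The SE of CRABP1 against WT was 0.12 in R227Q and 0.16 in H448L, and that of ANXA1 0.06 and 0.07. The 2 counts therefore do not rank the variants. Between the variants the differences were small, with a median absolute log2 fold change of 0.26 among the 35 called genes and a smallest of 0.16. Only 3 of the 35 differed by at least 1.5-fold, which were the lncRNA ENSG00000253321, CRABP1 and HR, and only the first by at least 2-fold. Of all tested genes, 1838 (10.9%) had an unadjusted p under 0.05, 891 higher and 947 lower.

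The R227Q 1 library has no H448L counterpart in its submission, so the contrast was also fitted on the 6 libraries of 4LJFHN alone. There 33 of 17488 genes (0.189%) were called, 15 higher and 18 lower, and 23 of them were among the 35. All 35 genes had the same sign in that fit. In deposited CPM, the H448L and R227Q libraries of 4LJFHN did not overlap for any of the 35 genes, a state shared by 26.3% of all genes tested. Over all 6 variant libraries 26 of the 35 did not overlap, against 13.3% of all genes tested. Without the submission term, 1 gene was called, ENSG00000253321, and 706 genes had an unadjusted p under 0.05. With the 6 variant libraries alone and no submission term, no gene was called, and 782 had an unadjusted p under 0.05.

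**Figure D1:**
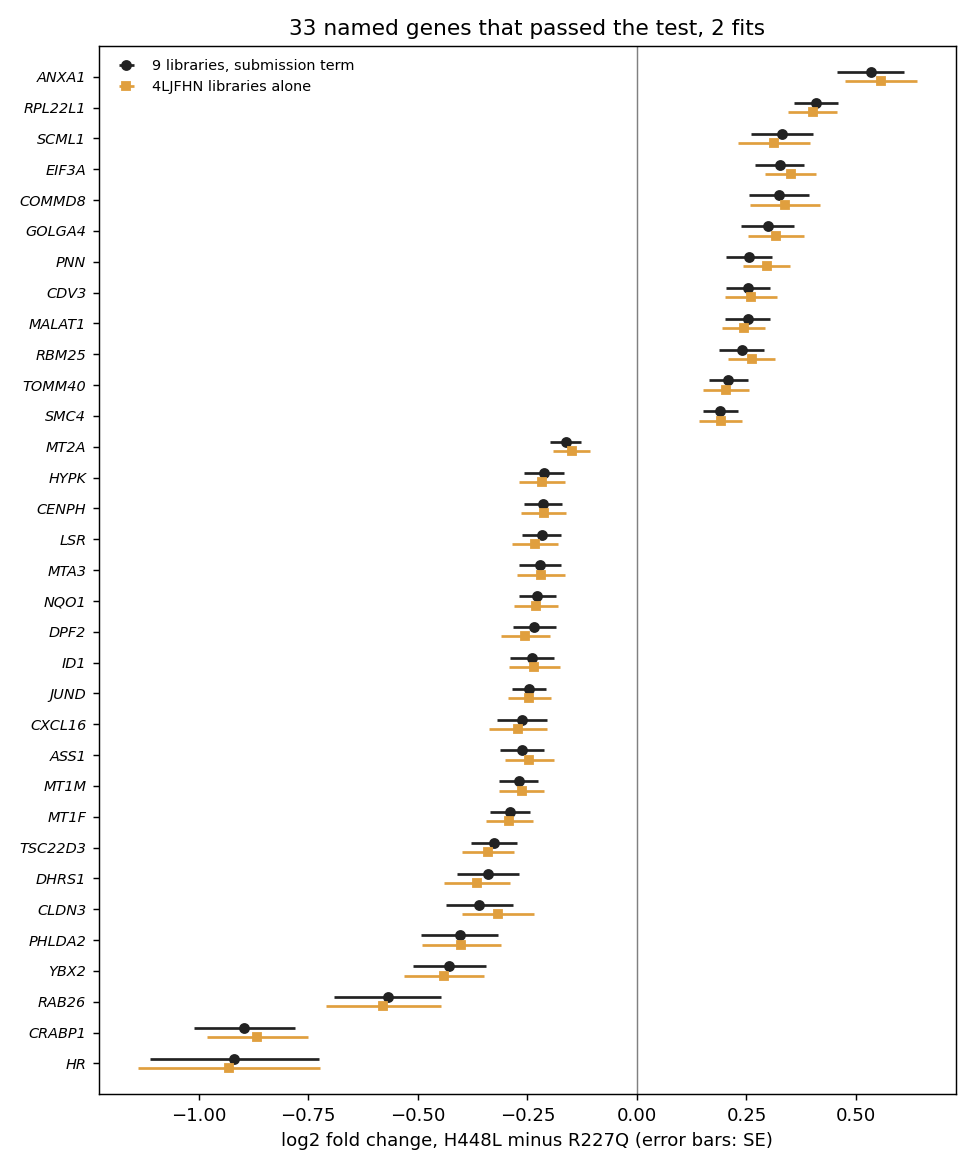
Log2 fold change of H448L minus R227Q for 33 called genes with a symbol, from the model on 9 libraries with submission as a term (circles) and from the 4LJFHN libraries alone (squares); bars are standard errors. Each gene lies on the same side of 0 in both fits, and CRABP1 and HR lie farthest to the left.

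Among the genes higher in H448L, ANXA1 and RPL22L1 had the largest differences of those with a symbol. ANXA1 encodes annexin A1, a calcium-dependent membrane-binding protein. It was at 32.7, 26.1 and 22.3 CPM in R227Q 1 to 3 and at 35.3, 36.0 and 36.4 CPM in H448L 1 to 3. Every H448L library lay above every R227Q library, and all 6 lay far below the WT libraries, at 74.3 to 99.9 CPM. The log2 fold change was 0.53 ± 0.08 (SE, edgeR adjusted p = 0.000394), and 0.56 within 4LJFHN (adjusted p = 0.000135). Against WT, the log2 fold change of ANXA1 was -1.58 in R227Q and -1.05 in H448L.

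RPL22L1 encodes a paralog of the ribosomal protein RPL22. It was at 124, 131 and 120.1 CPM in R227Q and at 163, 159.9 and 178 CPM in H448L. The groups did not overlap, and the H448L libraries lay between R227Q and the WT libraries, which were at 203 to 224 CPM. The log2 fold change was 0.41 ± 0.05 (edgeR adjusted p = 5.43e-05), and 0.40 within 4LJFHN (adjusted p = 7.74e-05). Processed copies of ribosomal protein genes are common in the genome, and the sources used here do not say how the counting divided reads among them.

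Next by size among the genes whose groups were apart came EIF3A and GOLGA4. EIF3A, the largest subunit of the eIF3 translation initiation complex, was at 152, 185 and 169 CPM in R227Q and at 217, 212 and 254 CPM in H448L. Its groups did not overlap and differed by 0.33 ± 0.06 on the log2 scale (edgeR adjusted p = 0.00474). MALAT1, a nuclear long noncoding RNA, was at 1319.7, 2539 and 2209 CPM in R227Q and at 2680.5, 2788 and 3037 CPM in H448L. The R227Q 1 library was far lower than the other 2, as were both WT libraries of its submission, so that the difference of 0.25 ± 0.05 on the log2 scale (edgeR adjusted p = 0.0353) is smaller than the group means would give. For MALAT1 it was H448L that lay farther from WT, with log2 fold changes against WT of 0.26 in H448L and 0.01 in R227Q. PNN and RBM25, which act in splicing, differed by 0.26 and 0.24 on the log2 scale. GOLGA4, a golgin of the trans-Golgi, differed by 0.30, and CDV3 by 0.25. TOMM40, the channel of the mitochondrial outer membrane import complex, differed by 0.21, with 122, 177 and 179.9 CPM in R227Q and 202, 199 and 222 CPM in H448L. SMC4, a condensin subunit chosen after its value was seen, differed by 0.19. Within 4LJFHN neither TOMM40 (edgeR adjusted p = 0.120) nor SMC4 (edgeR adjusted p = 0.118) was called.

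SCML1 and COMMD8 were called higher although their groups overlapped in CPM. SCML1 was at 38.8, 23.3 and 25.2 CPM in R227Q and at 30.2, 30.3 and 30.8 CPM in H448L. COMMD8 was at 37.5, 26.2 and 24.9 CPM in R227Q and at 33.4, 31.6 and 32.5 CPM in H448L. In both genes the R227Q 1 library lay above all H448L libraries, and the other R227Q libraries lay below them. Their log2 fold changes of 0.33 and 0.32 thus rest on the submission term for R227Q 1, and within 4LJFHN they were 0.31 (edgeR adjusted p = 0.123) and 0.34 (edgeR adjusted p = 0.0664).

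**Figure D2:**
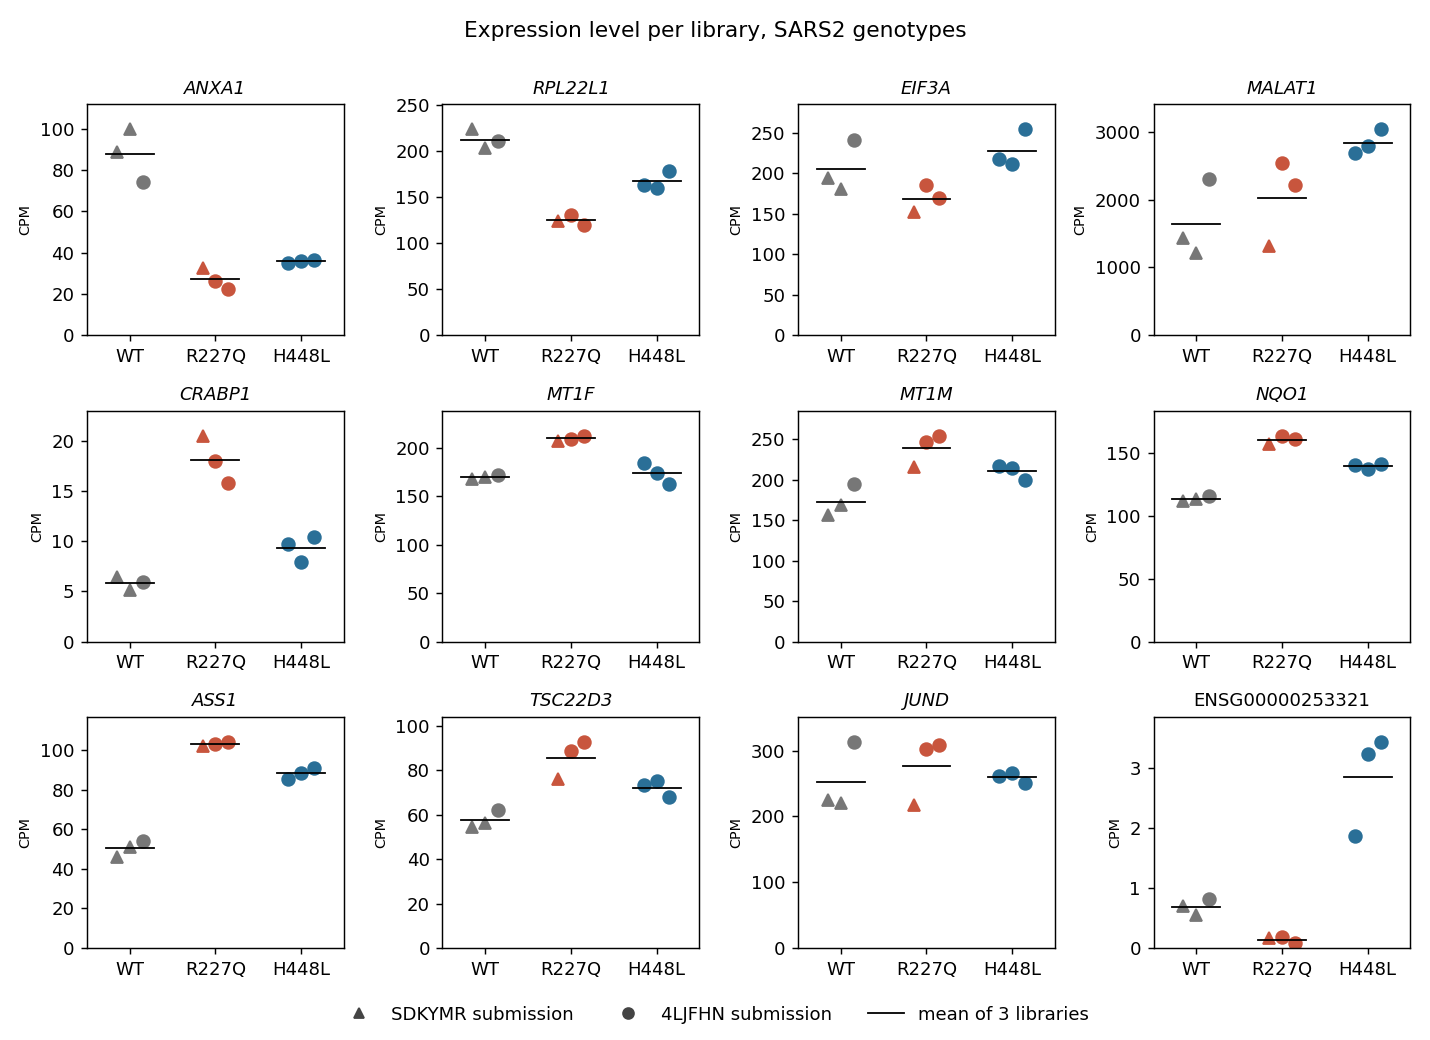
Deposited CPM in each library for 12 called genes, by genotype; triangles are SDKYMR libraries, circles are 4LJFHN libraries and the line is the mean of 3 libraries. ANXA1 and RPL22L1 are higher in H448L than in R227Q, CRABP1, MT1F, NQO1 and ASS1 are lower, and MALAT1 and JUND also differ between triangles and circles.

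CRABP1 had the largest fall among the genes that the naming rule covers. It encodes a cytosolic protein that binds retinoic acid. CRABP1 was at 20.5, 18 and 15.8 CPM in R227Q and at 9.71, 7.94 and 10.4 CPM in H448L. The groups did not overlap, and the H448L libraries lay nearer to the WT libraries (5.13 to 6.47 CPM) than to R227Q. The log2 fold change was -0.90 ± 0.12 (edgeR adjusted p = 8.07e-05), and -0.87 within 4LJFHN (adjusted p = 4.35e-05). Against WT, the log2 fold change of CRABP1 was 1.69 in R227Q and 0.79 in H448L.

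Of the metallothioneins, small cysteine-rich proteins that bind zinc and copper, 3 were lower in H448L. They belong to a metallothionein and zinc list of 9 measured genes, of which 3 fell, none rose and 6 did not pass. An unadjusted p under 0.05 in edgeR's test was reached by 6 of the 9 (1 higher, 5 lower), against 10.9% of all genes tested. The list median was -0.12 against 0.01 over all genes tested, and it was negative in each of 21 alternative settings. MT1F was at 207, 209 and 213 CPM in R227Q and at 185, 174 and 163 CPM in H448L, without overlap. Its log2 fold change was -0.29 ± 0.05 (edgeR adjusted p = 0.00213), and its H448L libraries spanned the WT levels of 168 to 172 CPM. MT1M was at 216, 246 and 254 CPM in R227Q and at 216, 215 and 199.9 CPM in H448L, where R227Q 1 lay within the H448L range. Its log2 fold change was -0.27 ± 0.04 (edgeR adjusted p = 0.00223). MT2A, at 1215, 1417 and 1448 CPM in R227Q and 1318, 1300.1 and 1289 CPM in H448L, differed by -0.16 on the log2 scale (edgeR adjusted p = 0.0401). The R227Q 1 library was lowest of the 6 for MT2A, within 4LJFHN the adjusted p was 0.176, and with RLE scaling factors MT2A was not called. MT1X and MT1E were not called, at -0.16 (95% interval -0.24 to -0.08) and -0.12 (95% interval -0.19 to -0.05). MTF1, the zinc-sensing factor that activates metallothionein genes, was not called either, at 0.30 (95% interval 0.10 to 0.49). Metallothionein genes are near-identical neighbours on chromosome 16, so reads may have been divided among them in ways the files do not show.

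MTF1 binds metal response elements, and the promoter of MT2A is shown because 3 genes of this family were called lower. These are the 250 bases before its start site (RefSeq, GRCh38.p14, chr16:56608334-56608583, plus strand). Capitals mark matches on either strand to the element's core, searched as TGCACNC or TGCGCNC.
MT2A promoter: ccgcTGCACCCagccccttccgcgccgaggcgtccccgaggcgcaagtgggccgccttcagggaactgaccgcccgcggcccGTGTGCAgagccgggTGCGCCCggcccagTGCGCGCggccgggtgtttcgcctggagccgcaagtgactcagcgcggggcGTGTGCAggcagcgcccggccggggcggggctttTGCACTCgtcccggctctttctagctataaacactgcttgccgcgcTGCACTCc
It held 7 matches, and MT1X, the other metallothionein matched in the promoter table, held 4. Of 35116 promoters of this length, 24.8% held at least 1 match and 0.12% at least 5. Of the 35 called genes, 24 had an entry and 11 of those held at least 1 match in any of their entries. A gene can have more than 1 entry, so this count of genes cannot be set against the share of promoters. A match describes letters in the window and is no measure of binding.

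TSC22D3 was the only called member of the integrated stress response list. It encodes GILZ, a leucine zipper protein induced by glucocorticoids. TSC22D3 was at 76.0, 88.5 and 92.8 CPM in R227Q and at 73.4, 75.2 and 68.1 CPM in H448L. The groups did not overlap, although R227Q 1 was close to H448L 2, and the log2 fold change was -0.33 ± 0.05 (edgeR adjusted p = 0.00223). Of the 33 measured members, 28 had a negative difference, 11 had an unadjusted p under 0.05, all of those lower in H448L, and the median was -0.10. Over all 16908 genes tested, 8148 had a negative difference and 947 were lower at that unadjusted p. Against WT, 22 of the 33 were called higher in R227Q (median 0.26) and 12 in H448L (median 0.19), counts from contrasts that share libraries with this one. Over all 16908 genes tested, calls higher than WT also numbered fewer in H448L, at 503 against 1268 in R227Q.

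Other genes of this response did not pass the test between the variants. DDIT3, the pro-apoptotic factor CHOP, was at 54.7, 36.7 and 34 CPM in R227Q and at 30.4, 33.2 and 33 CPM in H448L. The R227Q 1 library was highest, but WT 1 and WT 2 of its submission were also higher than WT 3, and the log2 fold change was -0.14 (95% interval -0.27 to 0.00). GDF15, a secreted stress hormone, was at 7.58, 7.64 and 6.56 CPM in R227Q and at 5.16, 6.65 and 5.66 CPM in H448L. Its groups overlapped slightly, and the log2 difference was -0.33 (95% interval -0.63 to -0.03, edgeR adjusted p = 0.397). INHBE, the inhibin beta E chain, stood at -0.31 (95% interval -0.53 to -0.09). ASNS, asparagine synthetase, had a log2 fold change of -0.07 (95% interval -0.17 to 0.03). ATF4 mRNA stood at -0.00 (95% interval -0.09 to 0.08) and TRIB3 at 0.03 (95% interval -0.12 to 0.19). CHAC1, which degrades glutathione, stood at -0.14 (95% interval -0.38 to 0.10). These intervals do not show that the variants act alike on the response.

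A gene of aspartate and arginine metabolism was also lower in H448L. ASS1 encodes argininosuccinate synthase, which joins citrulline and aspartate. It was at 102, 103 and 104 CPM in R227Q and at 85.5, 88.6 and 90.8 CPM in H448L. The groups were well apart, with WT libraries at 46.3 to 54.1 CPM, and the log2 fold change was -0.26 ± 0.05 (edgeR adjusted p = 0.0204). The call of ASS1 was lost with DESeq2, with the replicate block and without WT 3, R227Q 1, R227Q 3 or H448L 2. SHMT2, the mitochondrial serine hydroxymethyltransferase, was at 340.4, 296 and 294 CPM in R227Q and at 268, 270.0 and 256 CPM in H448L. The SHMT2 libraries did not overlap, but the test was not passed at -0.17 (95% interval -0.25 to -0.09, edgeR adjusted p = 0.0606). Of 13 measured genes of serine synthesis and one-carbon metabolism none was called by edgeR, 4 had an unadjusted p under 0.05 (2 higher, 2 lower), and the median was -0.05. PHGDH and MTHFD2 both stood at -0.05 (95% intervals -0.14 to 0.04 and -0.13 to 0.04).

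NQO1, a quinone reductase and a target of the oxidative stress factor NRF2, was at 157, 164 and 161 CPM in R227Q and at 140.3, 137 and 142 CPM in H448L. The groups did not overlap and the H448L libraries lay between R227Q and WT (112 to 116 CPM). Its log2 fold change was -0.23 ± 0.04 (edgeR adjusted p = 0.0137). NQO1 was the only called gene of 20 measured NRF2 targets, whose median was -0.03. Of the 20, 5 had an unadjusted p under 0.05 in edgeR's test, all lower in H448L, against 10.9% of all genes tested. AKR1C1 of the same list stood at -0.28 (95% interval -0.48 to -0.07) without passing.

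JUND, an AP-1 transcription factor, was at 218, 302 and 308 CPM in R227Q and at 262, 266 and 250.5 CPM in H448L. The R227Q 1 library was below all H448L libraries and the other 2 were above them. Libraries of SDKYMR were lower for JUND in WT too, at 225 and 219.8 against 313 CPM, and the log2 fold change with the submission term was -0.25 ± 0.04 (edgeR adjusted p = 0.00223). JUND lay farther from WT in H448L, with log2 fold changes against WT of -0.29 in H448L and -0.04 in R227Q. ID1, an inhibitor of helix-loop-helix factors, was lower by 0.24 on the log2 scale, at 125, 102 and 98.8 CPM in R227Q and 90.2, 80.3 and 87.1 CPM in H448L. Here too H448L lay farther from WT, at -0.55 against WT and -0.31 in R227Q. ID1 was the only called gene of 14 measured neural and neurogenic factors, whose median was -0.14. Of the 14, 8 had an unadjusted p under 0.05 in edgeR's test (1 higher, 7 lower), against 10.9% of all genes tested. The call of ID1 was lost within 4LJFHN (edgeR adjusted p = 0.105), with DESeq2, with the replicate block, with GC content and length offsets and in 7 of the 9 fits that left out 1 library. OLIG1, an oligodendrocyte lineage factor, was not called between the variants at -0.42 (95% interval -0.67 to -0.16, edgeR adjusted p = 0.183). OLIG1 was called higher than WT in both, with log2 fold changes of 1.97 in R227Q and 1.55 in H448L.

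Other genes lower in H448L were of mixed function. RAB26, a small GTPase of secretory vesicles, was at 9.20, 10.4 and 9.39 CPM in R227Q and at 6.23, 6.74 and 7.07 CPM in H448L, and differed by -0.57 ± 0.12 on the log2 scale (edgeR adjusted p = 0.0385). YBX2, an RNA-binding protein of germ cells, stood at -0.43, PHLDA2, an imprinted growth-restraining gene, at -0.40, and CLDN3, a tight junction claudin, at -0.36. DHRS1, a short-chain dehydrogenase, stood at -0.34 and CXCL16, a transmembrane chemokine, at -0.26. The groups of RAB26, PHLDA2, CLDN3 and CXCL16 did not overlap, whereas those of YBX2 and DHRS1 overlapped through R227Q 1. Within 4LJFHN the calls of CLDN3 (edgeR adjusted p = 0.123) and CXCL16 (edgeR adjusted p = 0.0768) were lost. The remaining called genes lie outside the naming rule and were chosen after their values were seen. HR, a histone demethylase of hair biology, had 47, 46 and 59 counts in R227Q and 22, 26 and 27 in H448L, a difference of -0.92 ± 0.19 on the log2 scale (edgeR adjusted p = 0.0374). DPF2, MTA3, LSR, CENPH and HYPK stood between -0.23 and -0.21, and MTA3, CENPH and HYPK were not called within 4LJFHN. The groups of CENPH and HYPK overlapped through R227Q 1. For CENPH that library, at 178 CPM, lay below all H448L libraries (202 to 224 CPM). For HYPK it was at 244 CPM, within the H448L range of 234 to 264 CPM. HYPK overlaps SERF2 on the same strand, and the sources used here do not say whether the counting used strand.

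ENSG00000253321, also outside that rule, had the widest difference. It is a long noncoding RNA gene, with a transcript of 572 bases, at chr5:90353037-90356609 on the minus strand (GRCh38). Its counts were 2, 2 and 1 in R227Q, 21, 35 and 34 in H448L, and 9, 7 and 9 in WT. All H448L libraries were above WT and all R227Q libraries below it. The ratio of summed counts per library size was 20.2 (95% interval 8.35 to 63.7, counting error only), and 22.2 (7.34 to 109) within 4LJFHN. The edgeR adjusted p was 5.14e-06.

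SARS2 itself was not called between the variants. It was at 8.68, 8.35 and 7.09 CPM in R227Q and at 7.88, 8.68 and 7.93 CPM in H448L, and the groups overlapped. The log2 fold change was 0.10 (95% interval -0.16 to 0.36, edgeR adjusted p = 0.850). Whether reads of the constitutive copy count under SARS2 is not stated, and total SARS2 counts do not show which variant a library carries, so this value does not check the labels. The protein-coding entry AC011455.2 overlaps SARS2 on the same strand over 15493 bases, so reads may be shared with it.

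The lists of mitochondrial translation and respiration held no gene called by edgeR. Of the 13 messenger RNAs encoded in mitochondrial DNA, 9 had a negative difference, 2 had an unadjusted p under 0.05, both lower in H448L, and the median was -0.05. MT-CO1, a core subunit of cytochrome c oxidase, was at 3527, 2943 and 2876 CPM in R227Q and at 2515, 2868 and 2601 CPM in H448L. These groups did not overlap for MT-CO1, but the test was not passed at -0.12 (95% interval -0.21 to -0.04, edgeR adjusted p = 0.235). MT-CO3 stood at -0.14 (95% interval -0.23 to -0.05). These mRNAs took 5.94%, 5.22% and 5.15% of counts in R227Q and 5.24%, 4.82% and 4.67% in H448L. The medians were 0.02 for 75 nuclear respiratory chain subunits, 0.02 for 77 mitochondrial ribosomal proteins and 0.01 for 16 other mitochondrial tRNA synthetases, and each turned negative in some alternatives, to at most -0.06, -0.05 and -0.04. Members with an unadjusted p under 0.05 numbered 10, 8 and 1. HSPD1, the mitochondrial chaperonin, stood at 0.02 (95% interval -0.05 to 0.10).

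Sterol synthesis genes, the targets of SREBP2, had no member called by edgeR of 24, although 18 had a positive difference and the median was 0.06. The 6 with an unadjusted p under 0.05 were all higher in H448L. Over all 16908 genes tested, 8760 had a positive difference and 891 were higher at that unadjusted p. SQLE, squalene epoxidase, was at 78.3, 81.9 and 81.6 CPM in R227Q and at 94.1, 94.3 and 94.0 CPM in H448L. The groups did not overlap and WT was higher still (118 to 132 CPM), yet SQLE did not pass at 0.17 (95% interval 0.08 to 0.27, edgeR adjusted p = 0.137). HMGCS1 stood at 0.08 (95% interval -0.03 to 0.18). Against WT, 21 of the 24 were called lower in R227Q and 18 in H448L, again from shared libraries. Over all 16908 genes tested, 1676 were called lower than WT in R227Q and 844 in H448L. ANXA1 was the only called gene of 13 annexins and S100 proteins. The other 23 of the 28 lists, including the 4 marker lists, had no called member, with 0 to 10 members at an unadjusted p under 0.05.

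**Figure D3:**
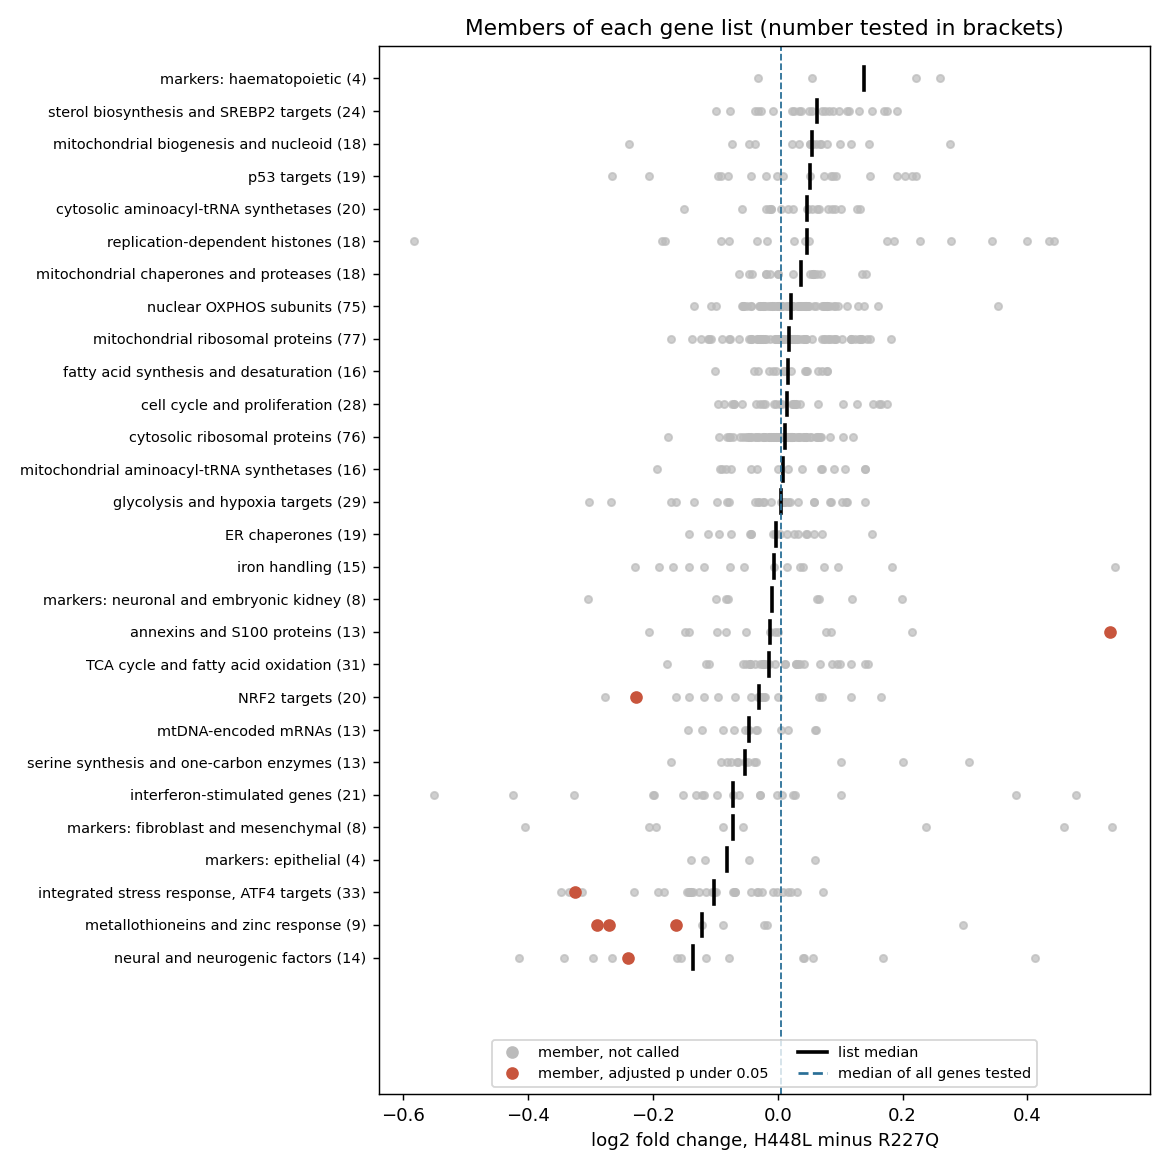
Log2 fold change of H448L minus R227Q for each measured member of the 28 gene lists (grey, not called; red, adjusted p under 0.05), with the list median as a black bar and the median over all genes as a dashed line. Called members appear in 5 lists only, with 3 among the metallothioneins.

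The called genes differed in base composition by direction. Median transcript GC content was 40.8% for the 14 genes higher in H448L and 57.0% for the 21 lower, against 49.8% over the tested genes with a value. Median transcript length was 4118 and 1973 bases, against 3217.5. Over all genes the median log2 fold change moved little across 5 bins of GC content, from 0.02 in the lowest to -0.00 in the highest. When each library's dependence on GC content and length was removed, an alternative added after the data were seen, 15 genes were called, 6 higher and 9 lower, all of them among the 35. ANXA1, CRABP1, RPL22L1, EIF3A, MT1F, MT1M, TSC22D3 and NQO1 were among those 15. The log2 fold changes of the 20 genes no longer called were 79.4% to 100.1% of those without the correction, with a median of 92.1%. SCML1 went from 0.33 to 0.31, PNN from 0.26 to 0.23 and JUND from -0.25 to -0.20.

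**Figure D4:**
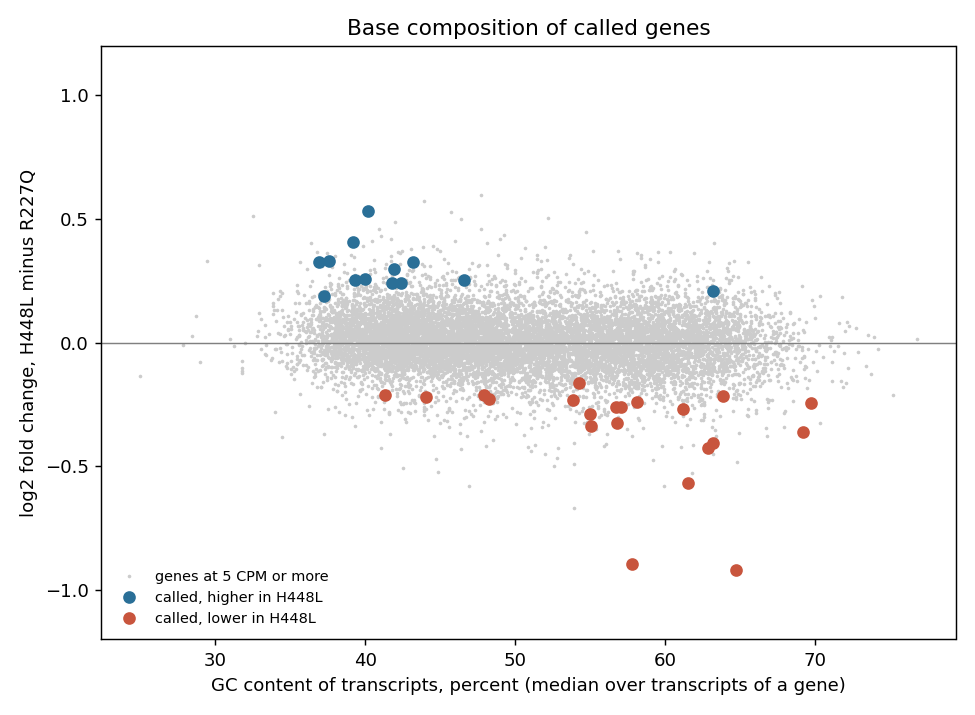
Transcript GC content against the log2 fold change of H448L minus R227Q; grey points are genes with a mean of 5 CPM or more, blue and red points are called genes higher and lower in H448L, and ENSG00000253321 lies above the axis range. Of the genes higher in H448L only TOMM40 lies above 60% GC.

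Single libraries decided many of the calls. Leaving out R227Q 3 left 4 called genes, which were ANXA1, RPL22L1, CRABP1 and ENSG00000253321. These 4 genes alone were called whichever of the 9 libraries was left out. Leaving out H448L 1 raised the count to 91, of which 28 were among the 35, and leaving out H448L 2 or H448L 3 gave 11 and 12. Without R227Q 1, 22 genes were called, 18 of them among the 35, and without WT 1 or WT 3 the counts were 14 and 21. MT1F, MT1M, TSC22D3, EIF3A and JUND were called in 8 of the 9 fits, losing the call without R227Q 3, and NQO1 in 6. ASS1, GOLGA4 and YBX2 were called in 5, CDV3, DHRS1, LSR, DPF2, MALAT1 and RBM25 in 4, and PNN and CENPH in 3. TOMM40, SMC4, HYPK, PHLDA2, CLDN3, CXCL16 and ID1 were called in 2. SCML1, COMMD8, MT2A, RAB26, HR and MTA3 were called in 1. No called gene changed direction in any of these fits.

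**Figure D5:**
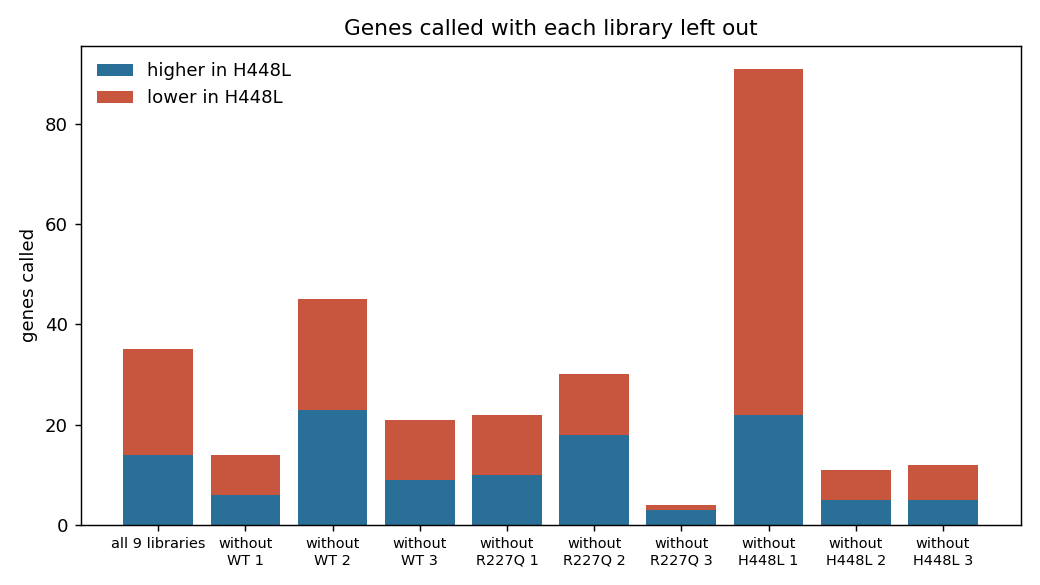
Number of genes called for H448L against R227Q with all 9 libraries and with each library left out in turn; blue is higher and red is lower in H448L. The count ranges from 4 without R227Q 3 to 91 without H448L 1.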

How the data were processed

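Poly-A RNA was sequenced from Hap1 cells in 9 libraries, 3 each of WT, R227Q and H448L SARS2. The deposited tables hold estimated counts per gene, some of them fractional, and CPM computed by the authors, per the file headers; both submissions list the same 78986 entries. The submitters' processing notes name GRCh38; the sources used here do not name the aligner, the counter or the strand setting. The members and gene lists were chosen with earlier results of these data known.

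The 92 ERCC spike-in entries were dropped, and the 2 tables were joined on gene identifier. Counts were rounded and tested with edgeR 4.0.16 (R 4.3.3): filterByExpr, TMM factors (0.969 to 1.02), a quasi-likelihood model of genotype and submission on 9 libraries with 5 residual degrees of freedom, two-sided, and a Benjamini-Hochberg adjusted p under 0.05. The design had assumed whole counts. A fit on the 6 libraries of 4LJFHN used genotype alone. Levels are the deposited CPM, and fold changes are edgeR's. The SE is the fold change over the root of the F statistic. The common biological coefficient of variation was 2.96%, and the median SE was 0.10 over genes and 0.08 at 5 CPM or more. Intervals on count ratios cover counting error only. Genes were named by rule: 19 by name, the 12 largest rises and falls among called genes with a symbol and a mean of 5 CPM or more, and up to 3 called members per list; 2 of these genes are not reported here. Marker lists covered epithelial, fibroblast, haematopoietic, and neuronal and kidney genes. GC content was known for 93.1% of tested genes, from GENCODE 29. Alternatives were DESeq2 1.42.0, limma-voom (limma 3.58.1), RLE and upper-quartile factors, other count filters, other sample sets, a replicate block, each library left out, and GC content with length offsets (mgcv 1.9.3). The steps were tested on simulated data.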

Additional observations from a re-analysis of the deposited data

Results flagged for a closer look

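The tables list spike-in controls (ERCC RNAs) that no comparison here uses. They had more than the 3 counts that a count of 0 allows in 7 libraries: 11 in WT 1, 9 in WT 2, 18 in R227Q 1, 4 in WT 3, 5 in R227Q 2, 5 in H448L 2 and 7 in H448L 3. R227Q 3 had 2 counts and H448L 1 had 1.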

How the results depend on the processing

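Against 35 called genes, counts within 1.5 times of it came from limma-voom (38), RLE (35) and upper-quartile factors (40), a mean of at least 10 counts (38), the 4LJFHN libraries alone (33) and their variant libraries alone (32). DESeq2 called 12 (4 higher, 8 lower, all among the 35), the test of every gene with a count 122 (36 higher, 86 lower), and GC content with length offsets 15. A 1.5-fold minimum left 3. Without the submission term 1 was called, and with the 6 variant libraries alone 0 (782 at an unadjusted p under 0.05, edgeR). Leaving out 1 library gave 4 to 91 genes, from 3 higher and 1 lower to 22 higher and 69 lower. Within 4LJFHN, 33 genes became 73 with every gene with a count and 5 to 93 with 1 library left out, the low without R227Q 3 and the high without H448L 1. The causes were not tested.

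Deviations of same-numbered libraries from the model correlated from -0.40 to 0.12, with 1 of 9 pairs over 0.1. Other pairs of libraries from different genotypes ran from -0.39 to 1, with 4 of 18 over 0.1. The model itself fixes some of these values, such as the 1 between WT 3 and R227Q 1. They therefore cannot show whether replicate numbers paired the libraries. With the replicate block 31 genes were called, 9 higher and 22 lower, 21 of them among the 35.

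Log2 differences that changed sign, of those reported here, were all in genes not called. SARS2 was -0.012 without the submission term and -0.017 in the 6 variant libraries alone, where TRIB3 was -0.19 and -0.20, and MTHFD2 was 0.0020 without the term. ATF4 was 0.0014 in 4LJFHN, 0.0016 in its variant libraries alone, 0.0091 with the replicate block, 0.012 with GC content and length offsets and -0.033 to 0.022 with 1 library left out. With 1 library left out TRIB3 ran from -0.026 to 0.096 and CHAC1 from -0.24 to 0.016. SHMT2 passed with every gene with a count and without H448L 1, and MT-CO1 with every gene with a count. Metallothionein calls numbered 5 with every gene with a count, and 0 without R227Q 3 or without the submission term. Depth limits genes with few counts, such as ENSG00000253321, to wide intervals.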
